A study of Mus musculus with 6 samples.

Results

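The genes described here belong to the amino acid branch of the ATF4 stress response: Atf4 itself, Ddit3, Ddit4, Chac1, Trib3, Asns, Sesn2, Psat1 and Phgdh. Open chromatin around them was profiled by ATAC-seq, which uses the transposase Tn5 to cut and tag accessible DNA, in endothelial cells of the mouse lung. A region of the deposited table was taken as a member when the table gives it one of these 9 gene symbols, or when the table gives it no gene and the closest protein-coding start site of the table, within 100 kb, is that of one of the genes. This took 35 of 58172 regions, 13 by symbol and 22 by distance, and left Psat1 without a region. The 35 comprise 9 promoter regions, centred within 1 kb of a start site, and 26 distal ones. Chac1 and Ddit4 have 8 regions each, Asns 6, Trib3 and Phgdh 4 each, Sesn2 3, and Ddit3 and Atf4 1 each, a promoter region. Being nearest to a gene says nothing of whether a region regulates it.

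Per the titles, 3 libraries came from CSE-KO, Cre-positive cells and 3 from WT, Cre-negative cells. CSE is cystathionine gamma-lyase, the enzyme encoded by Cth that makes cysteine, and KO marks its loss. Cre and the loss of the enzyme cannot be told apart. The promoter that drives Cre, the age and sex of the mice, and whether each library is a separate animal are not stated in the labels, so every p-value reflects the scatter among these libraries alone, which may be technical. In a bulk library, a lower value cannot tell fewer cells with an open site from less opening in each cell.

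ATF4 is a bZIP transcription factor whose messenger RNA is translated better when kinases phosphorylate the initiation factor eIF2alpha, for example when an amino acid runs short. It then switches on genes that make and import amino acids, among them Asns, Phgdh and Psat1, and genes that restrain growth or promote death under lasting stress, among them Ddit3, Ddit4, Sesn2, Trib3 and Chac1. Its sites are composite elements read by ATF4 paired with a C/EBP factor. Cth sits on the route that makes cysteine from methionine.

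Promoter sequences are shown for Chac1, with the largest promoter change of the 9, Asns, a textbook ATF4 target, and Ddit4, which shows no match. They are the 250 bases before the RefSeq start site (RefSeq, GRCm38.p6, the assembly called mm10), 5′ to 3′ on the strand of the gene, at chr2:119350992-119351241 on the plus strand, chr6:7693210-7693459 on the minus strand and chr10:59951771-59952020 on the minus strand. Capitals mark matches to the core of the composite element, searched as TGATGNAA on both strands. The Ddit4 region that holds the printed bases did not pass the threshold used below. The Ddit4 promoter region that did, centred 929 bp into the gene, lies outside the bases searched.
Chac1: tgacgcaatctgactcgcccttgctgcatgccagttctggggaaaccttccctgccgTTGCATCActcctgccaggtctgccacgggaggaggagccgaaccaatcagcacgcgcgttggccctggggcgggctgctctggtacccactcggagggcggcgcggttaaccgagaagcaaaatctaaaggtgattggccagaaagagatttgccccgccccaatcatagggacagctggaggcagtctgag
Asns: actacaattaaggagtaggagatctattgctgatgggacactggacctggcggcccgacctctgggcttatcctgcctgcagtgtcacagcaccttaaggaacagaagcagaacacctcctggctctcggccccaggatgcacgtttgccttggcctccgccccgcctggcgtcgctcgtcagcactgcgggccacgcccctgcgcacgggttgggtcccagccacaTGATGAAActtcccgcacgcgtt
Ddit4: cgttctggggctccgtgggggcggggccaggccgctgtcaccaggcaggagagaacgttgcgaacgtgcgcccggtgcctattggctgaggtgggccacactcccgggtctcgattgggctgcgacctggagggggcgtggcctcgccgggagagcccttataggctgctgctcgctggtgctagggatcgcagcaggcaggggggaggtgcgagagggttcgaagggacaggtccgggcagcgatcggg

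RefSeq windows of 250 bases before to 50 after the start were available for all 9 genes, 2 of them for Psat1. The core TGATGNAA occurs in 3 of these 10 windows, those of Chac1, Asns and Trib3, and in 3.6% of 21263 windows of protein-coding genes. In Chac1 it starts 193 bases and in Asns 23 bases before the start site, and in Trib3 it starts 14 bases after it. The cAMP response element TGACGTCA (2.23% of windows) and the ER stress response element (0.141%), also searched on both strands, occur in none of the 10, and the CCAAT box, which overlaps the ER stress element, occurs in 7 (38.2% of windows). The GC content of the windows ran between 47.7% in Phgdh and 69% in Ddit4, with a median of 56.3% over all windows. These matches describe letters in a window and do not show binding.

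Values below are those of the deposited table, scaled between libraries by the authors and rounded, with no unit. They sum to between 5437296 and 5547417 in the CSE-KO libraries and to between 5242490 and 5368491 in the WT libraries. The CSE-KO columns skip 35 to 39 of the whole numbers up to 100 while the WT columns skip 0, so that 1 read is worth about 1.53 to 1.63 in CSE-KO and no more than about 1 in WT. CSE-KO values thus rest on fewer reads, an estimated 3337746 to 3625045 in regions against at least 5242490 in WT, and they scatter more: the median SD of log2(value + 1) over the 9 promoter regions was 0.20 in CSE-KO and 0.086 in WT. Changes are CSE-KO minus WT on the log2(value + 1) scale, tested with limma across 58129 regions with a mean of at least 5, and a region is called at a Benjamini-Hochberg adjusted p under 0.05. All 35 regions passed that filter. The Cth promoter (chr3:157924836-157925422) had 11, 6 and 2 in CSE-KO against 195, 157 and 167 in WT, so no library went against its label. Of 10 endothelial markers, 8 have a promoter region (Pecam1 and Vwf have none under their symbol), with summed values of 1208 to 1375 in CSE-KO and 1044 to 1102 in WT. Markers of other cells had fewer promoter regions, with lower sums: 4 of 10 mural and fibroblast genes (254 to 281 in CSE-KO, 198 to 204 in WT), 3 of 10 lung epithelial genes (149 to 212 and 165 to 195) and 2 of 10 leukocyte genes (175 to 186 and 247 to 284), with none for Ptprc. These sums run over unlike numbers of regions, so a lower sum does not show weaker regions. Single regions were not all weaker: WT means were 169 for Spi1 and 122 for Foxj1, between the endothelial 35 for Esam and 277 for Cldn5. The endothelial, mural and leukocyte sums differ between the groups, and their part in the results below was not tested.

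Single markers moved in both directions. Among the endothelial receptors, the Kdr and Tek promoters were 1.63-fold and 1.64-fold higher in CSE-KO (adjusted p = 0.0268 and 0.038), both lost without CSE-KO replicate 1 or each WT replicate, and Tek also without CSE-KO replicate 3 (0.0531 to 0.0984 for Kdr, 0.0701 to 0.129 for Tek). The Tie1 promoter was 2.42-fold lower (adjusted p = 0.00942) and held without any 1 library. Of 47 distal regions of endothelial markers, 1 was higher and 12 were lower, with a median of -0.52, while the median of their promoter regions was 0.33. Over all distal regions 8.43% were called higher and 11.5% lower, with a median of -0.06. The median over all promoter regions was 0.11. Of the other cells' markers, the Col1a1 promoter was 2.12-fold higher (adjusted p = 0.0176, without WT replicate 1 or 3 up to 0.0722). The Epcam promoter was 1.85-fold higher (0.0353, lost without CSE-KO replicate 2 or 3 or each WT replicate, 0.0761 to 0.121). The Spi1 promoter was 1.70-fold lower (0.0261, lost without CSE-KO replicate 1 or each WT replicate, 0.0538 to 0.0991). Not called were the promoters of Pdgfrb (0.25), Acta2 (0.15), Myh11 (-0.70), Foxj1 (-0.06), Hopx (-0.53) and Cd68 (-0.24). Among these, Myh11 and Hopx were lower and Pdgfrb higher without overlap. Of 13 distal mural and fibroblast regions, 0 were called higher and 2 lower, near Col1a1 and Pdgfrb. Of 26 distal epithelial regions 2 were higher and 2 lower, and of 6 leukocyte ones 0 were called.

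Of the 35 regions, 4 were called higher in CSE-KO and 5 lower, where 7.7% and 9.6% of all regions were, 17.3% in either direction. Changes were positive at 21 of the 35, and at 49.7% of all regions. Of the 9 promoter regions, 2 were called higher in CSE-KO, at Chac1 and within Ddit4, and 0 lower, where 5.23% of all promoter regions were called higher and 3.29% lower, 8.52% in all. All 9 changes were positive, as were 61.4% of changes over all promoter regions, and their median was 0.31 against 0.11 over all promoter regions. The CSE-KO libraries lay above the WT libraries without overlap at 7 of the 9, where 23.9% of all promoter regions did so. The genes were chosen with earlier results of these data known, so these shares are no independent comparison. The 9 also had a higher median value than all promoter regions (219 against 150). Of the 26 distal regions, 2 were called higher (7.69%, where 8.43% of all distal regions were) and 5 lower (19.2%, where 11.5% were), 7 in all against a background of 19.9%, with a median change of -0.05 against -0.06 over all distal regions. By gene, Phgdh had higher calls only, Asns lower calls only, Chac1 and Ddit4 both, and Atf4, Ddit3, Sesn2 and Trib3 none.

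**Figure D1:**
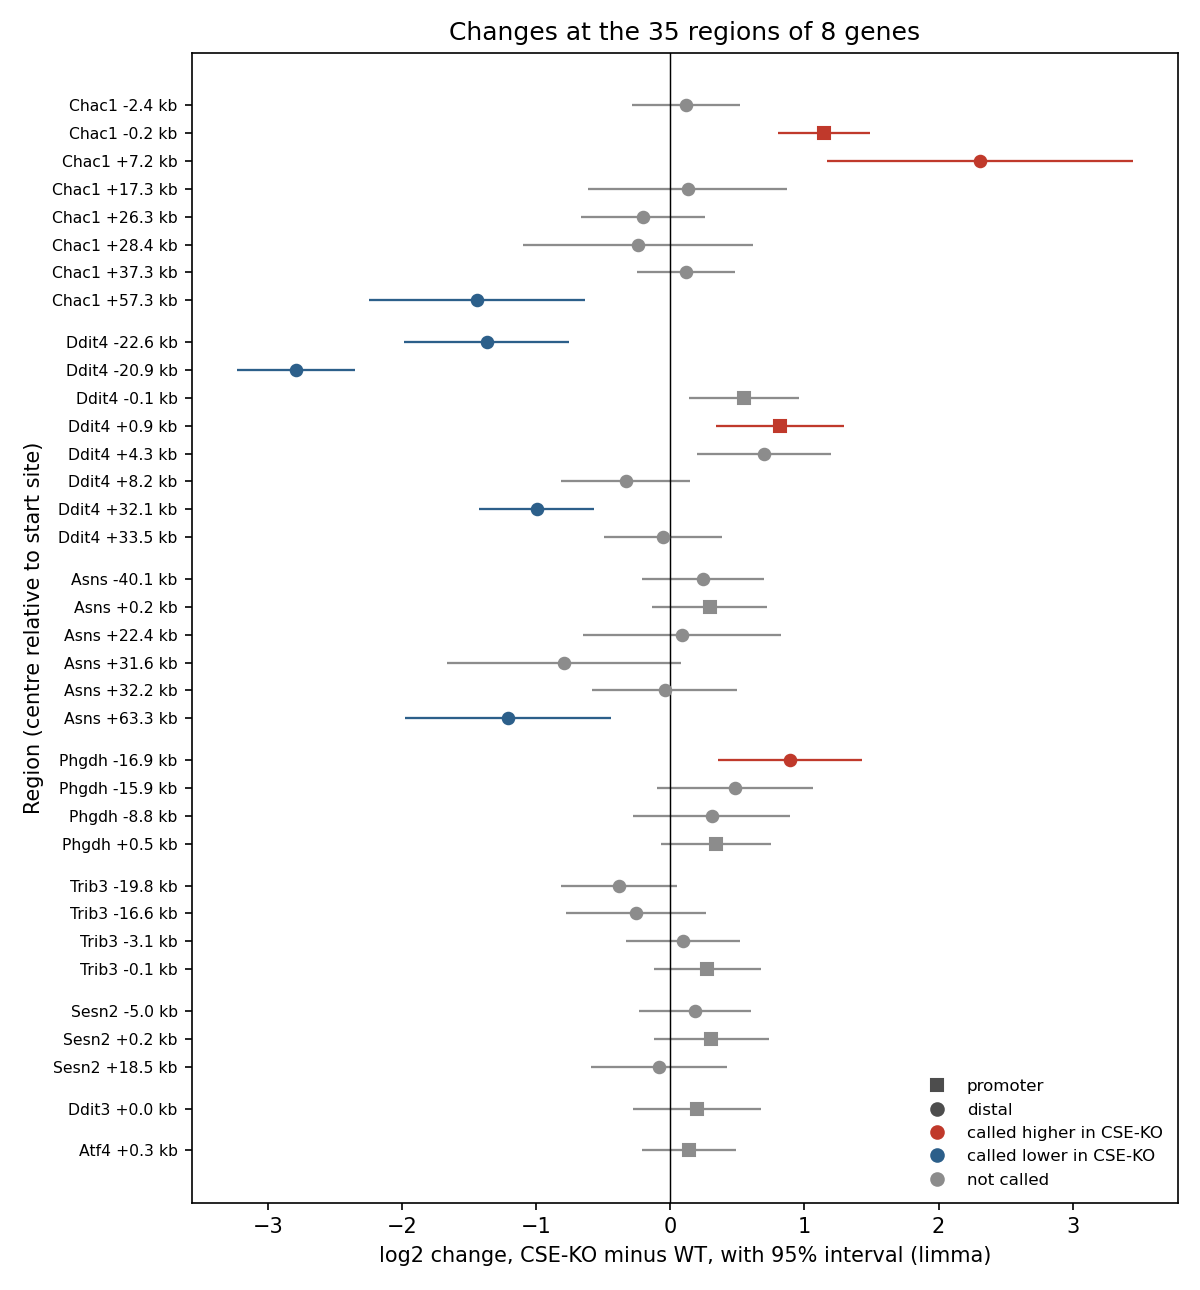
Log2 change (CSE-KO minus WT, x axis) with its 95% interval from limma at each of the 35 regions, listed by gene and by the distance of the region's centre from the start site in kb (y axis, upstream negative). Squares are promoter and circles distal regions. The 4 called higher and 5 called lower are coloured, and all 9 squares lie right of 0.

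Atf4, the transcription factor at the head of the pathway, had a promoter region (chr15:80254838-80256128) with 386, 394 and 387 in CSE-KO and 358, 363 and 337 in WT. The groups did not overlap, but the change was small and not called (0.14, 95% interval -0.21 to 0.49, adjusted p = 0.541). It was the smallest change of the 9 promoter regions. No distal region was assigned to Atf4.

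Ddit3 encodes CHOP, a bZIP factor downstream of ATF4 that is linked to cell death under lasting stress. Its promoter region (chr10:127290329-127291403), whose centre lies in the RefSeq spans of both Ddit3 and Mbd6, had 283, 320 and 422 in CSE-KO and 323, 296 and 264 in WT. The groups overlapped and the region was not called (0.20, 95% interval -0.28 to 0.68, adjusted p = 0.531). CSE-KO replicate 3 alone lay above all WT libraries.

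Chac1 degrades glutathione, releasing cysteinylglycine, and is among the most inducible ATF4 targets. Its promoter region (chr2:119350662-119351399), which covers the sequence printed above with its composite core, had 247, 247 and 246 in CSE-KO and 109, 113 and 111 in WT. The groups did not overlap, at 247 ± 0.58 against 111 ± 2 (SD, n = 3 each). The CSE-KO mean stands for an estimated 155 reads, at which counting error alone gives an SD of about 19.8, so the SD of 0.58 understates the error of the value. The 2.21-fold rise (log2 1.15 ± 0.15 SE, adjusted p = 0.00557) stayed called when any library was left out, with an adjusted p of at most 0.0336. A region 2.41 kb upstream (chr2:119348524-119349111), also given to Chac1 by the table, showed no such difference: it had 121, 107 and 100 in CSE-KO and 89, 103 and 110 in WT (0.12, 95% interval -0.28 to 0.52, adjusted p = 0.664). 

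The largest rise among all 35 regions lay downstream of Chac1, 7.23 kb from its start site and outside any RefSeq protein-coding gene. This narrow region (chr2:119358349-119358570, 222 bp) had 29, 57 and 43 in CSE-KO and 17, 4 and 6 in WT. Every CSE-KO library exceeded every WT library, with a change of 2.31 ± 0.48 (4.95-fold, adjusted p = 0.0214). The values are low, and the call ended without CSE-KO replicate 2 (adjusted p = 0.055), WT replicate 2 (0.067) or WT replicate 3 (0.0788).

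Further downstream of Chac1 the direction turned. The region 57.3 kb away (chr2:119408272-119408750), inside Ino80, which encodes a chromatin remodeller, had 10, 21 and 10 in CSE-KO and 46, 26 and 41 in WT. It fell by 1.44 on the log2 scale (SE 0.34, adjusted p = 0.0307). That call ended without CSE-KO replicate 1 or 3 (adjusted p = 0.0711 and 0.0719) or WT replicate 1 or 3 (0.106 and 0.103). The other 4 regions, between 17.3 and 37.3 kb downstream, were not called, with changes between -0.24 and 0.13. The strongest of them, 37.3 kb away and also in Ino80, had 225, 204 and 197 in CSE-KO and 182, 194 and 200 in WT. At 26.3 kb the values were 91, 86 and 62 in CSE-KO and 87, 94 and 91 in WT. At 17.3 kb they were 8, 15 and 16 in CSE-KO and 9, 10 and 16 in WT, and at 28.4 kb 11, 26 and 28 in CSE-KO and 31, 21 and 21 in WT. The groups overlapped at all 4.

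**Figure D2:**
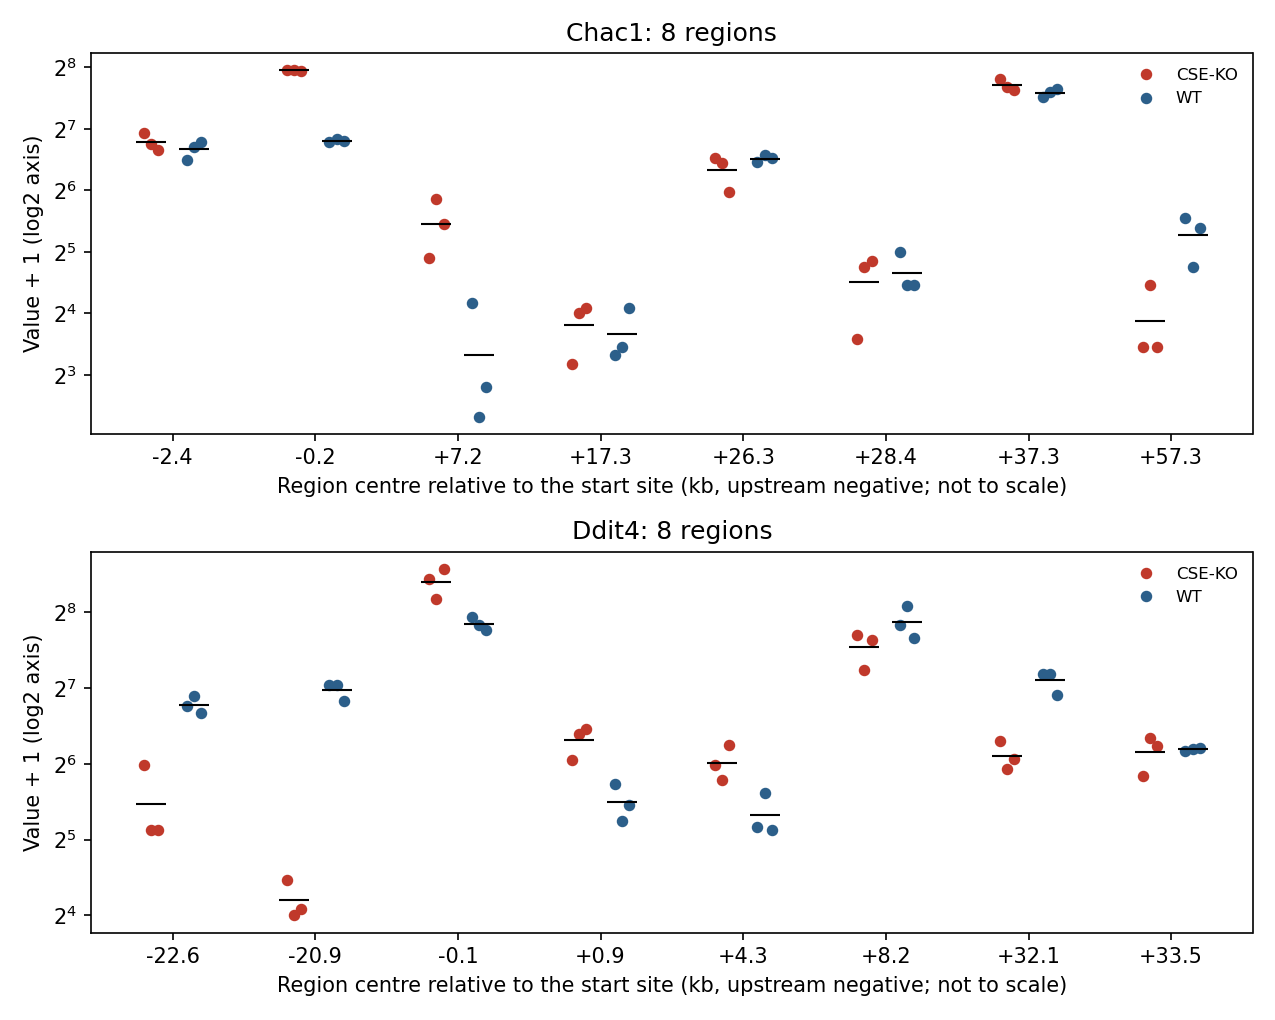
Value + 1 (y axis, log2 scale) in each library at the 8 regions of Chac1 (top) and of Ddit4 (bottom), ordered by distance from the start site in kb (x axis, not to scale). Points are libraries, CSE-KO left of WT, and bars are means of 3. Among the called regions, CSE-KO lies above WT at -0.2 and +7.2 kb of Chac1 and at +0.9 kb of Ddit4, and below it at +57.3 kb of Chac1 and at -22.6, -20.9 and +32.1 kb of Ddit4.

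Ddit4 encodes REDD1, an inhibitor of the growth kinase complex mTORC1 that ATF4 and hypoxia both induce. It was the gene with the most called regions, 1 higher and 3 lower of 8. The region over its start site (chr10:59951416-59952368) had 346, 288 and 379 in CSE-KO and 244, 226 and 217 in WT. The groups did not overlap, yet the change of 0.55 ± 0.17 was not called (adjusted p = 0.07). It was called with regions of mean at least 20 (adjusted p = 0.0478) and with limma's trend and robust options (0.00313).

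Within the Ddit4 gene, 929 bp from its start site, a second and weaker promoter region (chr10:59950769-59951040) had 65, 83 and 87 in CSE-KO and 52, 37 and 43 in WT. All CSE-KO libraries lay above WT, a 1.77-fold rise (log2 0.82 ± 0.20, adjusted p = 0.0353). This call ended without CSE-KO replicate 2 or 3 (adjusted p = 0.0752 and 0.0761) or WT replicate 1, 2 or 3 (0.0636, 0.121 and 0.111). Beyond the end of the gene, 4.3 kb from the start, a region (chr10:59947439-59947634) had 62, 54 and 75 in CSE-KO and 35, 48 and 34 in WT. It pointed the same way (0.70 ± 0.21) and was not called (adjusted p = 0.0632), but passed with regions of mean at least 20 (0.04) or the trend and robust options (0.039).

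Upstream of Ddit4 a pair of distal sites fell. The region 20.9 kb upstream (chr10:59972477-59972928) had 21, 15 and 16 in CSE-KO and 131, 130 and 113 in WT. This was the largest fall of the 35 regions, 17.3 ± 3.21 against 125 ± 10.1 (n = 3 each), 6.91-fold lower in CSE-KO (log2 -2.79 ± 0.19, adjusted p = 0.00131). It stayed called without any 1 library, with an adjusted p of at most 0.0141. The neighbouring site 22.6 kb upstream (chr10:59974211-59974726) had 62, 34 and 34 in CSE-KO and 108, 118 and 101 in WT. It fell by 1.37 on the log2 scale (adjusted p = 0.0161), a call lost without WT replicate 1, 2 or 3 (0.0615, 0.0654 and 0.0564).

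Downstream of Ddit4, the region 32.1 kb from its start site (chr10:59919490-59919961) had 78, 60 and 66 in CSE-KO and 145, 145 and 119 in WT. It was 1.99-fold lower in CSE-KO (adjusted p = 0.014), without WT replicate 1 or 2 no longer called (0.0614 and 0.0622). A neighbour centred 33.5 kb away (chr10:59918186-59918467) was level, at 56, 80 and 74 in CSE-KO and 71, 72 and 73 in WT (-0.06, 95% interval -0.49 to 0.38). The strong region 8.2 kb away had 207, 150 and 197 in CSE-KO and 226, 270 and 201 in WT and was not called (adjusted p = 0.291).

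Promoter minus distal differences were tested within each of the 6 genes that have both kinds of region, as the mean log2(value + 1) of the promoter regions less that of the distal ones. In Ddit4 this difference was 1.45 ± 0.22 in CSE-KO and -0.04 ± 0.23 in WT (SD, n = 3 each), a gap of 1.49 made of a promoter change of 0.69 and a distal change of -0.81. In Chac1 it was 2.5 ± 0.25 and 1.47 ± 0.22, a gap of 1.03 made of a promoter change of 1.15 and a distal change of 0.11. That distal change is a mean over 7 regions, among them a called rise (2.31) and a called fall (-1.44). The gaps were 0.64 in Asns and 0.46 in Trib3, and in these 4 genes every CSE-KO library lay above every WT library, with a two-sided exact permutation p of 0.1 each, the smallest that 3 libraries against 3 allow (0.15 adjusted over the 6 genes). In Sesn2 (0.26) and Phgdh (-0.22) the groups overlapped (exact permutation p = 0.3 each). The share of other genes with such gaps was not computed, so these counts have no background beside them. Over all regions the median change was 0.11 at promoter and -0.06 at distal regions, which points the same way.

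Trib3 encodes a pseudokinase that ATF4 and CHOP induce and that binds the kinase AKT. Its promoter region (chr2:152343556-152344679) had 235, 224 and 202 in CSE-KO and 160, 200 and 187 in WT. All CSE-KO libraries were above WT, the nearest by 2, and the region was not called (0.28, 95% interval -0.12 to 0.67, adjusted p = 0.294). None of its 3 distal regions was called either. The one 19.8 kb upstream had 69, 77 and 98 in CSE-KO against 106, 107 and 103 in WT (adjusted p = 0.187), and these groups did not overlap. The region 16.6 kb upstream had 230, 144 and 148 in CSE-KO and 201, 217 and 192 in WT (-0.26, adjusted p = 0.455). Both lie closer to the RefSeq start site of Nrsn2 than to that of Trib3. The region 3.11 kb upstream had 96, 74 and 79 in CSE-KO and 71, 87 and 74 in WT (0.10, adjusted p = 0.742).

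Sesn2 encodes sestrin 2, a leucine-binding inhibitor of mTORC1. Its promoter region (chr4:132509740-132510803) had 253, 346 and 341 in CSE-KO and 246, 255 and 251 in WT. CSE-KO replicates 2 and 3 lay well above WT and replicate 1 within it, and the region was not called (0.31, 95% interval -0.12 to 0.74, adjusted p = 0.281). Its 2 distal regions, 5.02 kb upstream and 18.5 kb downstream, had differences of 0.19 and -0.08, neither called. The nearer had 149, 172 and 138 in CSE-KO and 143, 117 and 143 in WT, and the farther 29, 38 and 31 in CSE-KO and 27, 36 and 42 in WT.

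Among the enzymes, Asns, which makes asparagine from aspartate, had a promoter region (chr6:7692591-7693494) with 225, 244 and 254 in CSE-KO and 208, 163 and 222 in WT. The groups were separated by 3, and the change was not called (0.30, 95% interval -0.13 to 0.72, adjusted p = 0.294). The region 63.3 kb downstream of its start site (chr6:7629681-7630129), outside any RefSeq protein-coding gene, had 16, 14 and 31 in CSE-KO and 55, 35 and 49 in WT. It fell by 1.21 on the log2 scale (adjusted p = 0.0443). This was the weakest of the 9 calls and ended without CSE-KO replicate 1 or 2 (adjusted p = 0.0988 and 0.0987) or WT replicate 1, 2 or 3 (0.141, 0.0745 and 0.131). The other 4 distal regions had changes between -0.79 and 0.24 and mean values of at most 30 in either group. Of these, the one 31.6 kb downstream, with 7, 8 and 20 in CSE-KO and 16, 22 and 19 in WT, was called lower only without CSE-KO replicate 3 (adjusted p = 0.0182). Its neighbour at 32.2 kb had 23, 31 and 33 in CSE-KO and 32, 23 and 35 in WT. The region 22.4 kb downstream had 11, 11 and 13 in CSE-KO and 10, 7 and 18 in WT, and the one 40.1 kb upstream 26, 18 and 21 in CSE-KO and 16, 18 and 20 in WT, with the groups overlapping at these 3.

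Phgdh catalyses the entry step of serine synthesis. Its promoter region (chr3:98338928-98340087) had 175, 236 and 213 in CSE-KO and 166, 164 and 158 in WT. CSE-KO lay above WT throughout, without a call (0.34, 95% interval -0.07 to 0.75, adjusted p = 0.213). All 3 distal regions, which lie upstream, pointed up as well. The most distant, 16.9 kb away (chr3:98356762-98357070), had 46, 49 and 36 in CSE-KO and 21, 30 and 19 in WT, a 1.85-fold rise (adjusted p = 0.0383). This call ended with library weights (0.0561) and without CSE-KO replicate 1 or 2 (0.0788 and 0.0847) or WT replicate 1 or 3 (0.125 and 0.128). Its neighbour 15.9 kb away had 113, 89 and 61 in CSE-KO and 60, 66 and 56 in WT, so that CSE-KO replicate 3 lay among the WT libraries (adjusted p = 0.212). The third, 8.82 kb away, had 15, 28 and 20 in CSE-KO and 15, 15 and 19 in WT (0.31, adjusted p = 0.419).

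**Figure D3:**
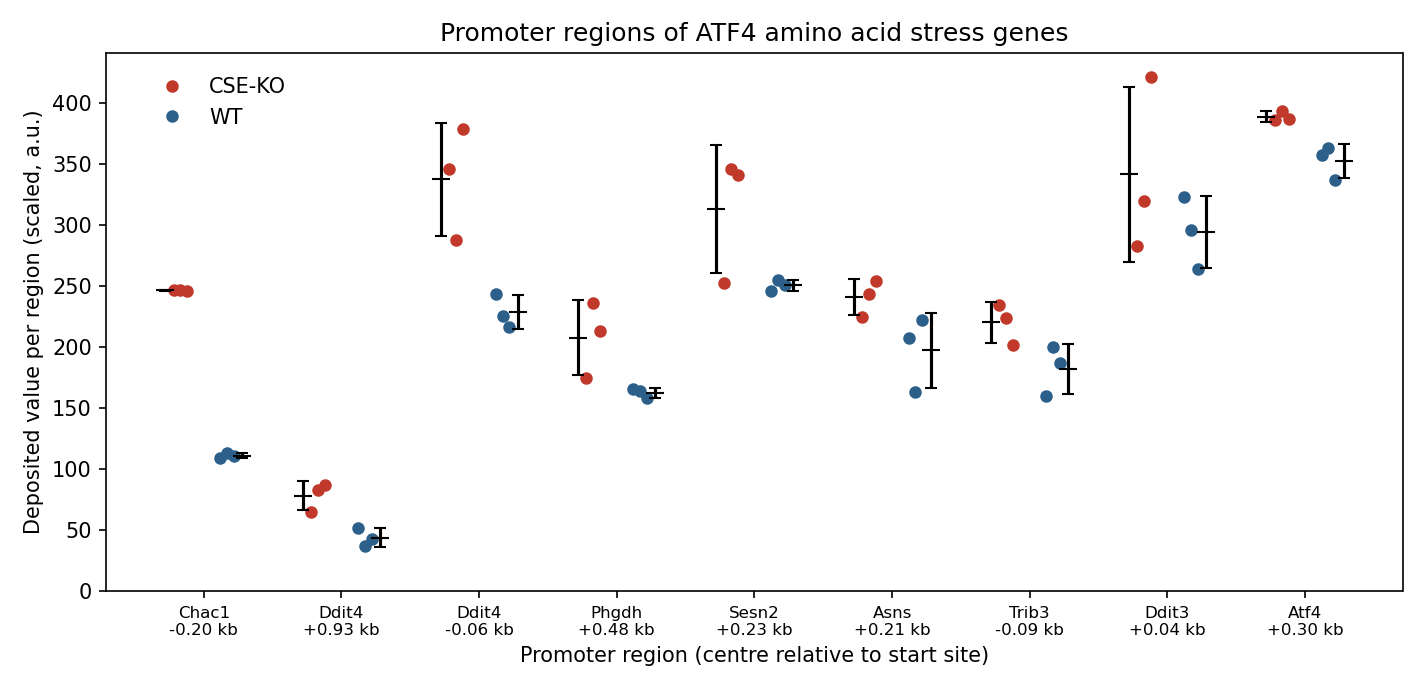
Deposited value (y axis, scaled, arbitrary units) of the 9 promoter regions in each library, ordered by change from left to right, with the distance of the centre from the start site in kb (x axis). Points are libraries, CSE-KO left of WT, and bars give mean and SD of 3. The groups overlap only at Sesn2 and Ddit3, and Chac1 shows a 2.21-fold rise.

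Per kilobase of region, so that levels can be set beside each other, Ddit4 at its start site led in CSE-KO with 354 ± 48.3, followed by Chac1 with 334 ± 0.78, Ddit3 with 318 ± 67 and Atf4 with 301 ± 3.38 (SD, n = 3). Sesn2 had 294 ± 49.2, the Ddit4 region within the gene 288 ± 43.1 and Asns 267 ± 16.3. Trib3 with 196 ± 14.9 and Phgdh with 179 ± 26.6 came last, and among neighbours in this order only Asns and Trib3 did not overlap in range. In WT the order began with Ddit3 at 274 ± 27.5 and Atf4 at 273 ± 10.7, then Ddit4 at its start site (240 ± 14.4), Sesn2 (236 ± 4.24), Asns (219 ± 34.1), Trib3 (162 ± 18.2) and the Ddit4 region within the gene (162 ± 27.8). Chac1 was next to last in WT, at 150 ± 2.71, and Phgdh last at 140 ± 3.59. In WT the neighbours that did not overlap were Atf4 and Ddit4, Asns and Trib3, and Chac1 and Phgdh. In CSE-KO the SDs of Chac1, Atf4, Asns and Trib3 lie below those from counting error alone. For Atf4 the SD was 4.36 against about 24.9, before division by width. The ranges thus understate the error of this order, and counting error was not estimated in WT. Chac1, 2nd of 9 in CSE-KO and 8th of 9 in WT, changed its place the most.

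Among 6219 other promoter regions of protein-coding genes with at least median values, those of Tgfa, Ddhd1, Pde12, Kdm2a and Akt2 had the profile over the 6 libraries closest to the mean profile of the 9 stress gene promoters. Their root mean square distances were 0.032 to 0.041 on the log2 scale, where the median promoter lay at 0.24 and the 9 themselves at 0.11 (Phgdh) to 0.35 (Chac1). None of the 5 was called (adjusted p 0.0841 to 0.118). A profile of 6 libraries in 2 groups holds little beyond the difference between the groups.

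Psat1, the aminotransferase that follows Phgdh in serine synthesis, is no member, because the table gives no region its symbol. RefSeq nevertheless places both its start sites (15925059 and 15924622) inside a region (chr19:15924181-15925381) that went by distance to Cep78, 60.2 kb away. This region, looked up after the other values were seen, had 369, 496 and 507 in CSE-KO and 307, 351 and 307 in WT. The groups did not overlap, and the change of 0.49 ± 0.19 was not called (adjusted p = 0.115; 0.00542 with the trend and robust options). Distances from Psat1 that follow are to the nearer of its start sites. A region centred 977 bp downstream, inside the gene (chr19:15923449-15923841), had 172, 146 and 184 in CSE-KO and 71, 60 and 65 in WT. It rose 2.53-fold (log2 1.34 ± 0.17, adjusted p = 0.00557) and stayed called without any 1 library (adjusted p at most 0.0331). Of a pair outside the gene, 19.7 and 20.3 kb downstream of the start site, the nearer fell to 7, 12 and 18 in CSE-KO, against 48, 42 and 63 in WT (adjusted p = 0.0102). The farther fell to 11, 15 and 16 in CSE-KO, against 46, 41 and 38 in WT (0.00564), and both stayed called without any 1 library. A region centred 716 bp upstream of the start site (chr19:15925605-15925945) had 75, 67 and 62 in CSE-KO and 41, 61 and 55 in WT. It was not called (0.39, adjusted p = 0.222).

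The wider pathway was described with 6 lists of 70 entries, of which 49 matched a region. Of their 47 promoter regions, 4 were called higher and 1 lower (background 5.23% and 3.29%), with a median of 0.14. Of their 112 distal regions, 8 were called higher and 17 lower (background 8.43% and 11.5%), with a median of -0.09. The 5 promoter calls, named after their values were seen, were rises at Eif2ak4, Shmt2, Stc2 and Lonp1 and a fall at Eif2ak3.

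The called promoters of kinases upstream of ATF4 moved in both directions. Eif2ak4 encodes GCN2, the eIF2alpha kinase that senses uncharged transfer RNA. Its promoter had 291, 337 and 315 in CSE-KO and 216, 212 and 190 in WT, a 1.52-fold rise (adjusted p = 0.0413) that was lost whichever library was left out (0.0509 to 0.142). A distal region 15.7 kb away had 56, 55 and 56 in CSE-KO and 17, 19 and 12 in WT (3.39-fold, adjusted p = 0.00435), and this call held without any 1 library. Eif2ak3 encodes PERK, the kinase of the endoplasmic reticulum. Its promoter had 371, 441 and 369 in CSE-KO and 630, 588 and 598 in WT, a 1.54-fold fall (adjusted p = 0.0393) that ended without CSE-KO replicate 1 or 3 (0.0745 and 0.0778) or each WT replicate (0.112 to 0.128). The distal regions of Eif2ak3 pointed up and were not called (0.32 and 0.66). The promoters of the further kinases Eif2ak2 (0.50, adjusted p = 0.063) and Eif2ak1 (-0.30, adjusted p = 0.229) were not called. Over the whole list of kinases and phosphatase subunits 1 promoter region was higher and 1 lower of 7, and 1 distal region higher of 7.

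Among bZIP partners and related factors 0 of 3 promoter regions were called, and 1 distal region was higher and 1 lower of 16. The rise was 5.26 kb from Nupr1, a small stress-induced chromatin protein, with 114, 110 and 105 in CSE-KO and 40, 45 and 56 in WT (2.33-fold, adjusted p = 0.00803). The fall was 26.7 kb from Jdp2, a bZIP repressor (3.35-fold lower in CSE-KO, adjusted p = 0.0441), and was lost without CSE-KO replicate 2 (0.0754), without each WT replicate (0.112 to 0.131) and with a pseudocount of 0.5 (0.051).

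Serine, glycine, proline and aspartate family genes had 1 promoter region higher and 0 lower of 10, and 1 distal region higher and 1 lower of 14. The promoter was that of Shmt2, the mitochondrial enzyme that turns serine into glycine, with 132, 113 and 103 in CSE-KO and 75, 65 and 75 in WT (1.61-fold, adjusted p = 0.0375, lost without CSE-KO replicate 1 or 2 (0.0729 and 0.0645) or each WT replicate, 0.101 to 0.13). A region 26.6 kb from Got1, an aspartate aminotransferase, rose 3.32-fold (adjusted p = 0.0132, without WT replicate 1 or 3 0.0567 and 0.0564). A region 68.9 kb from Mthfd1l, a mitochondrial folate enzyme, was 3.9-fold lower in CSE-KO (adjusted p = 0.0361), a call lost without CSE-KO replicate 2 or 3 (0.0657 and 0.0824) or each WT replicate (0.0903 to 0.117).

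Amino acid transporters showed no called promoter region among 7, with a median of 0.21. Of 39 distal regions, 3 were higher and 11 lower (background 8.43% and 11.5%). Most of the falls lay near Slc7a1 (between -2.44 and -0.81) and Slc38a2 (between -1.98 and -1.06), genes named after their values were seen. The falls were thus not spread evenly over the list. Near Slc7a11, an ATF4 target that imports cystine, a site 45.8 kb off rose 2.95-fold, with 33, 35 and 52 in CSE-KO and 14, 11 and 13 in WT (adjusted p = 0.00716). The region 20.8 kb from Slc6a9, a glycine transporter, was 2.23-fold lower in CSE-KO (adjusted p = 0.00913). Both calls held without any 1 library. Of the 6 distal regions of Slc7a11, however, 2 fell. One had 96, 118 and 87 in CSE-KO and 203, 206 and 186 in WT (adjusted p = 0.0136, lost without each WT replicate, 0.0513 to 0.0599). The other had 129, 142 and 162 in CSE-KO and 206, 270 and 238 in WT (adjusted p = 0.0384, lost without CSE-KO replicate 1 or 2 or each WT replicate, 0.0729 to 0.132).

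Aminoacyl-tRNA synthetases and the exporter Xpot, which ATF4 also induces, had 0 of 11 promoter regions called, with a median of 0.01, and 1 of 13 distal regions lower. That region, 8.48 kb from Wars1, was 1.56-fold lower in CSE-KO (adjusted p = 0.0344), a call lost whichever library was left out (0.054 to 0.121). Secreted and other stress targets had 2 of 9 promoter regions higher and 0 lower, and 2 of 23 distal regions higher and 3 lower. The promoter of Lonp1, a mitochondrial protease, had 291, 236 and 254 in CSE-KO and 152, 137 and 155 in WT (1.75-fold, adjusted p = 0.02, without each WT replicate 0.0678 to 0.0821). The promoter of Stc2, the secreted glycoprotein stanniocalcin 2, had 157, 129 and 182 in CSE-KO and 91, 86 and 73 in WT (1.85-fold, adjusted p = 0.0242, without CSE-KO replicate 3 0.0509 and without each WT replicate 0.067 to 0.0925). The region 2.44 kb from Vldlr, a lipoprotein receptor, rose 1.77-fold (adjusted p = 0.0238, without each WT replicate 0.07 to 0.0914). Of the 10 distal regions of Vldlr this was the only one called higher, and 2 fell. They had 20, 34 and 30 in CSE-KO against 59, 51 and 68 in WT (adjusted p = 0.0248, lost without each WT replicate, 0.0621 to 0.0922), and 39, 57 and 79 in CSE-KO against 98, 119 and 114 in WT (0.0498, lost without CSE-KO replicate 1 or 2 or each WT replicate, 0.0766 to 0.146).

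**Figure D4:**
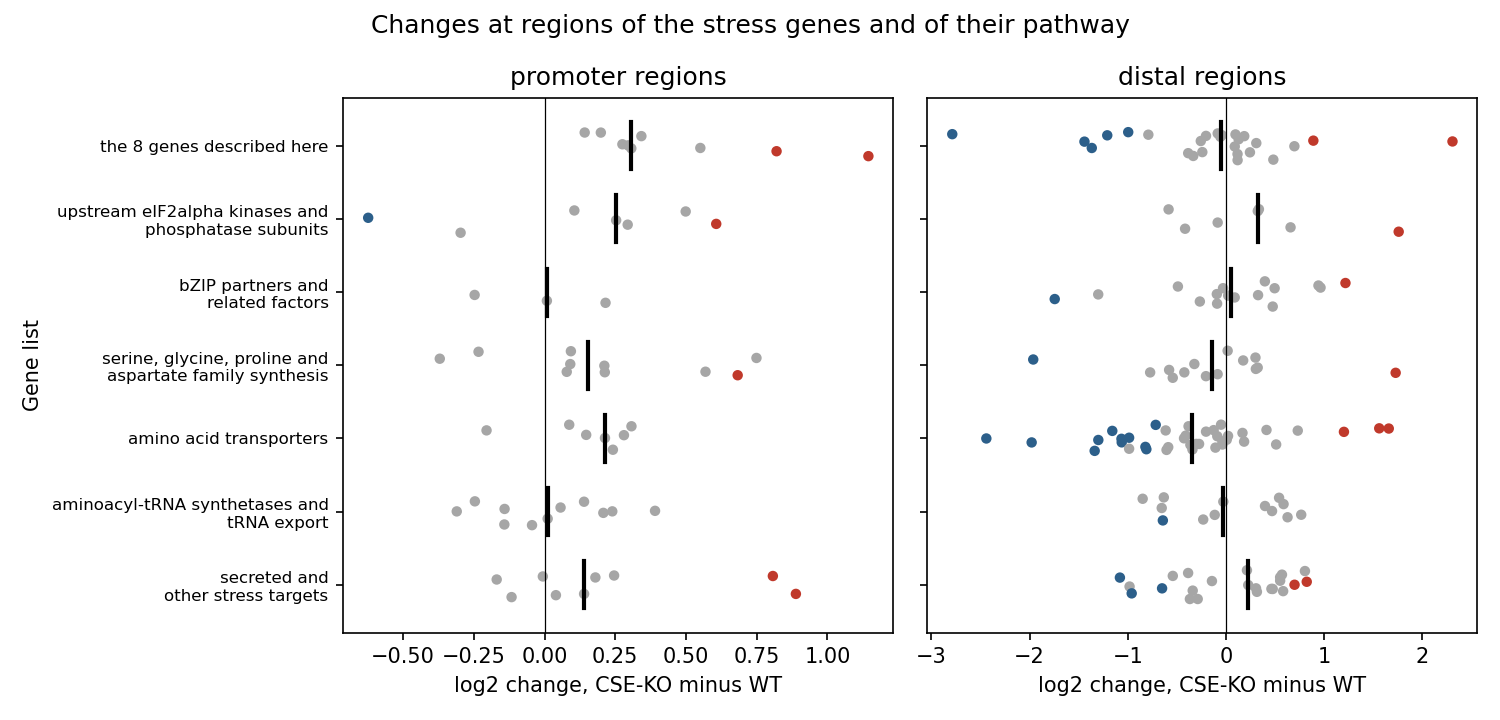
Log2 change (CSE-KO minus WT, x axis) of each promoter region (left) and distal region (right) of the 8 stress genes with regions and of 6 pathway lists (y axis). Points are regions, coloured where called, red higher and blue lower in CSE-KO, and bars are medians. The 8 genes have the highest promoter median of these lists, 0.31, and the transporters the lowest distal one, -0.34. The endothelial markers, which are not drawn, have a promoter median of 0.33 and a distal one of -0.52.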

How the data were processed

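The members and the gene lists were chosen with earlier results of these data known. The build is mm10, and the tools named are DESeq2 1.26.0, Picard 3.1.1, STAR 2.7.3a and Trimmomatic 0.39, all per the submitters' processing notes. What each tool did, which peak caller ran and whether reads were shifted for Tn5 is not stated there. The table's values, a score as deposited by the authors, are whole numbers with skipped values, as left by counts that were divided by size factors and rounded. Depth was estimated only from the skipped numbers, and counting intervals were not computed.

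From these values log2(value + 1) was computed and fitted in R 4.3.3 with limma 3.58.1 (eBayes, trend and robust off) over 58129 regions with a mean of at least 5, with Benjamini-Hochberg adjustment over all of them. Promoter minus distal differences were put to two-sided exact permutation tests. The script was tested on simulated data. Distances are the authors' where the table gives a gene. Promoter windows and gene spans came from RefSeq (GRCm38.p6). Of 12616 protein-coding genes of the table, 9385 matched RefSeq by symbol, 92.5% of them with start sites within 1 kb. No pair of libraries was identical (at most 3.68% of regions with equal values). All 35 member regions are described. Of each pathway list, up to 2 called regions with the smallest p were named, and further promoter and distal calls after their values were seen. Alternatives included other pseudocounts, filters, scalings (quantile, TMM), weights, a replicate block and leaving out each library.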

Additional observations from a re-analysis of the deposited data

How the results depend on the processing

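Of the 9 called regions, 2 stayed called under every alternative, the Chac1 promoter and the region 20.9 kb upstream of Ddit4, and none of the 9 changed direction. The other 7 lost the call without at least 1 library. Against 4 higher and 5 lower regions and 10057 calls over all regions, leaving out 1 library gave 1 to 3 higher and 1 to 5 lower member regions and 3493 to 8918 calls. Same-numbered libraries did not deviate together (correlations of -0.0059, -0.011 and 0.01), but the labels do not say whether they were paired. With the replicate block 2 member regions were higher and 4 lower, and 6013 regions were called in all. The block ended the calls 7.23 kb (adjusted p = 0.0543) and 57.3 kb (0.0746) from Chac1 and within Ddit4 (0.0846). In the wider lists it ended calls at the Eif2ak4, Eif2ak3, Shmt2, Stc2 and Lonp1 promoters. The same held near Jdp2 and Wars1 and for the rise near Vldlr (0.0535 to 0.097 over these 8). With the trend and robust options 15448 regions were called, and with regions over 10000 removed, chosen after seeing the data, 10049. With the deposited symbols alone, 13 regions remained members, 2 higher and 0 lower. With the nearest start site taken from RefSeq, chosen after seeing the data, there were 43 members, 5 higher and 8 lower, with those near Psat1 included. The cause of these shifts in count was not tested, other than that the last 2 settings change the members. Promoters within 2.5 kb left the counts of called promoter and distal regions as they were. The median change over all regions stayed between -0.01 and 0.02 in all settings.

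Among the 26 uncalled regions, 7 changed sign without 1 library. Over these settings the changes ran between -0.22 and 0.11 32.2 kb from Asns, between -0.19 and 0.43 22.4 kb from it, between -0.038 and 0.42 17.3 kb from Chac1, between -0.47 and 0.17 28.4 kb from Chac1, between -0.16 and 0.095 33.5 kb from Ddit4, between -0.25 and 0.056 18.5 kb from Sesn2 and between -0.011 and 0.18 3.11 kb from Trib3. Low values limit what the CSE-KO libraries can show: each read there is worth about 1.53 to 1.63.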
